A study of Astyanax mexicanus with 14 samples.

Results

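The population by UV-B interaction was measured over all 14 of 14 RNA sequencing libraries of the series. For each gene it is the log2 change after UV-B in Pachón cavefish minus the log2 change after UV-B in surface fish, so a positive value is a higher response in cavefish and a negative value a lower response. Higher and lower thus refer to the signed change, and a gene that fell more in cavefish counts as a lower response. The libraries came from whole larvae of the Mexican tetra (Astyanax mexicanus) at 6 days post-fertilization, collected 90 min after 60 s of UV-B or of white light given at the onset of the light phase, with 4 larvae pooled per library. The groups were surface morph larvae under the white light control (n = 4 libraries), surface morph larvae after UV-B (n = 4), Pachón cave morph larvae under the white light control (n = 3) and Pachón cave morph larvae after UV-B (n = 3). The controls thus also received a light exposure, and below untreated means the white light control and exposed means given UV-B. Neither the labels nor the methods say whether the pools of a group came from separate clutches, so p-values measure the spread between these pools. The question was whether the populations answer UV-B with the same genes and to the same extent.

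UV-B is absorbed by DNA and joins neighbouring pyrimidines into dimers, which fish remove by light-driven photolyases and by nucleotide excision repair. The same light also sets off stress kinases, which induce the AP-1 transcription factors (Fos and Jun proteins), inflammatory cytokines under the transcription factor NF-kappaB, and the integrated stress response, a translational programme that works through the transcription factor Atf4. In zebrafish, light also acts directly on clock genes of peripheral tissues, among them per2 and cry1a. Pachón cavefish are a blind population whose eyes degenerate during early development.

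The libraries held between 7.42 and 15.26 M counts. The 500 most abundant genes took 47.3% ± 1.01 of the counts in surface controls, 52.2% ± 1.19 in surface UV-B libraries (SD, n = 4 each), 54.5% ± 3.09 in cave controls and 62.1% ± 2.64 in cave UV-B libraries (SD, n = 3 each), so this share moved with both factors and its part in the results was not tested. Of 19 tissue markers, 18 had at least 3 counts in every library and 1, gck, was called for the interaction. The rod opsin gene rho lay between 940 and 2104 normalised CPM (counts per M of the TMM-scaled library) in surface fish and between 1.88 and 5.45 in cavefish, and the muscle creatine kinase gene ckmt2a between 326 and 594 in surface fish and between 3.47 and 18.5 in cavefish. The muscle markers acta1b, mylz3 and actn3b were not far lower in cavefish. Levels of acta1b lay between 9935 and 14831 in surface fish and between 13897 and 27808 in cavefish. For mylz3 the ranges were 3663 to 5221 and 4870 to 8238, and for actn3b 25.4 to 73.4 and 61.5 to 74.1. In whole larvae, the level of a single marker cannot tell fewer cells of a type from less RNA per cell. The cause of the low rho and ckmt2a levels in cavefish was not tested.

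Of 16104 genes tested, 596 (3.70%) were called for the interaction at an adjusted p under 0.05 in edgeR's quasi-likelihood test. The response was higher in cavefish for 227 of them (1.41% of tested genes) and lower for 369 (2.29%). At least 2-fold differences were fitted for 288 calls (1.79%), of which 145 were higher and 143 lower, and 3 of all calls had a group with no count at all, whose fitted difference is no bound. The median difference over all tested genes was 0.01. With library totals in place of TMM factors it shifted to -0.12, and the calls became 128 higher and 634 lower. The count also rested on single libraries, since it was 383 without surface control replicate 1, 392 without surface control replicate 2, 394 without surface UV-B replicate 4, 381 once cave control replicate 3 was left out and 326 once cave UV-B replicate 4 was.

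The 596 genes fell into a few forms of response. A UV-B response called in cavefish alone was the most frequent form, with 330 genes (55.4%), of which 232 were lower and 98 higher after UV-B. Another 149 genes (25.0%) changed in both populations in the same direction and by more in cavefish, 60 of them upward and 89 downward, whereas 6 changed in the same direction and by more in surface fish. In 68 genes (11.4%) the response was called in surface fish alone, with 48 lower and 20 higher after UV-B. The remaining calls were 41 genes (6.88%) that changed in opposite directions and 2 that were called in neither population. Of the opposite genes, 25 rose in surface fish and fell in cavefish, and 16 did the reverse. When each response was taken from its own population's libraries alone, an alternative chosen after seeing the data, the same 596 genes held 283 with a response in cavefish alone (47.5%), 95 in surface fish alone (15.9%), 160 with the same direction and larger in cavefish, 33 opposite and 19 called in neither. Of the 41 opposite genes 23 kept that form. Among them were the 10 with the smallest interaction p of the 15 that had a name. The plot of both responses shows these forms by the distance of each called gene from the line of equal response.

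**Figure D1:**
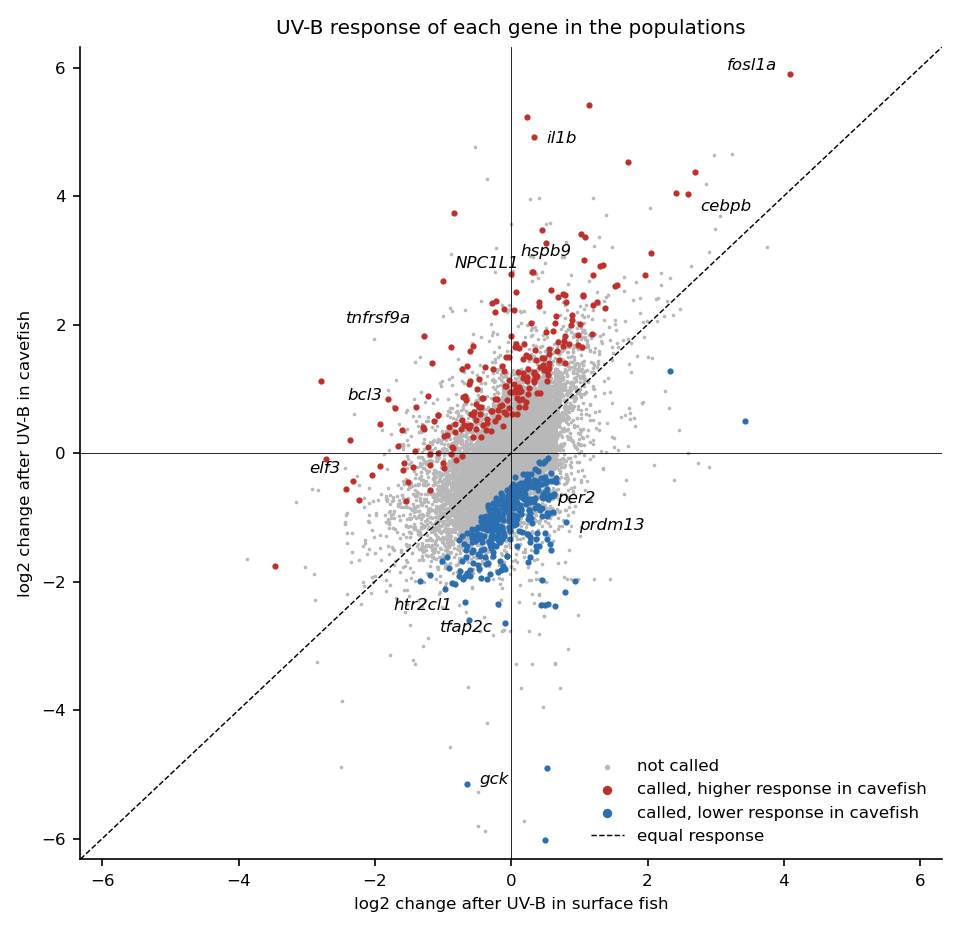
Log2 change after UV-B in surface fish (horizontal axis) against cavefish (vertical axis) for each of the 16104 tested genes, with the 227 genes called for a higher response in cavefish in red, the 369 called for a lower response in blue, and the line of equal response dashed. Genes called for a higher response in cavefish lie above the dashed line and those called for a lower response below it.

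Genes are described by function below. A name was paired with 1937 tested genes, and the names came from tables that, as used here, were cut to the genes ranked first for UV-B response in these same libraries, so the names are no independent evidence of a response. Of the named genes 290 (15.0%) were called for the interaction, 119 (6.14%) with a higher and 171 (8.83%) with a lower response in cavefish, and list counts are read against these shares. After UV-B 11.0% of all tested genes rose and 12.6% fell in surface fish, and 15.2% rose and 16.3% fell in cavefish. Fitted on the libraries of 1 population alone, the order of the populations turned, with 13.4% higher and 15.4% lower calls in surface fish and 12.6% and 13.8% in cavefish. Of the named genes 35.5% rose and 54.1% fell in surface fish, and 33.5% rose and 45.9% fell in cavefish. The lists were written by function with earlier results of these data known. A list's share of calls is therefore no independent support for its theme. All 407 entries of the lists passed the filter on low counts. A gene can stand on more than 1 list, as the photolyase gene cpdp does on those for DNA repair and the clock. Among 17 lists, calls exceeded 30% of the members in the lists for inflammation, immediate early genes, the integrated stress response, the synapse and the clock. No list had calls for both higher and lower responses apart from glucose and lipid metabolism.

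**Figure D2:**
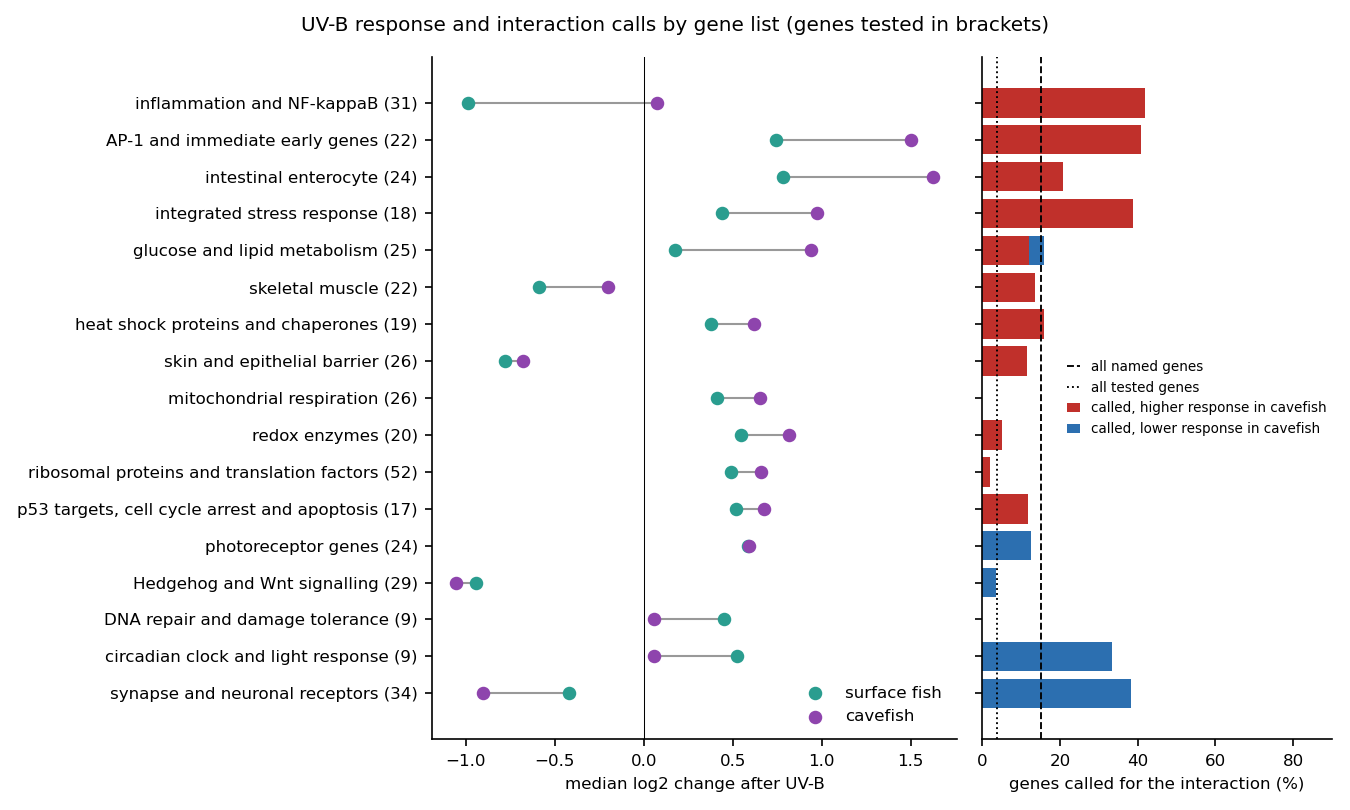
Left, median log2 change after UV-B of the tested genes of each of 17 lists in surface fish (green) and cavefish (purple), with the number of genes tested in brackets. Right, share of each list called for the interaction in percent, with the shares of all named genes (15.0%, dashed) and of all tested genes (3.70%, dotted). The inflammation list moves from a median of -0.99 in surface fish to 0.08 in cavefish, and the synapse list from -0.42 to -0.91.

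Inflammatory genes had the largest median difference of the 17 lists. Of 31 tested genes of the inflammation and NF-kappaB list, 13 (41.9%) were called with a higher response in cavefish and none with a lower one, against 6.14% and 8.83% of all named genes. In surface fish 4 of the 31 rose after UV-B and 24 fell, while in cavefish 10 rose and 9 fell. The median difference was 1.01 on the log2 scale. Over the alternatives the number called higher ran from 9, without cave UV-B replicate 4, to 13.

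Interleukin 1 beta, a cytokine that starts inflammation, has 2 identifiers in the annotation, and both were called. The more abundant copy, ENSAMXG00000035729, stood at 40.3, 23.4, 37.6 and 25.0 normalised CPM in surface controls, at 74.8, 60.6, 70.8 and 50.6 in surface UV-B libraries, at 6.79, 8.73 and 6.72 in the controls of cavefish and at 68.7, 79.7 and 87.9 in their treated libraries. Treated libraries were above the controls in both populations without overlap, and the cave controls lay below every other library. The log2 change of this il1b copy was 1.03 in surface fish and 3.41 in cavefish, a difference of 2.38 ± 0.27 (SE, adjusted p = 5.9e-05). The other copy, ENSAMXG00000031873, had 5, 2 and 2 counts in untreated cavefish and 54, 106 and 58 in exposed ones, against 71, 44, 128 and 41 in surface controls and 76, 84, 57 and 43 in surface UV-B libraries. Its il1b difference was 4.59 ± 0.70 (SE, adjusted p = 0.000785), on very few control counts in cavefish. Whether reads were shared between the copies was not tested.

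Regulators of NF-kappaB were among the called genes. The costimulatory receptor gene tnfrsf9a was at 32.5, 13.4, 18.7 and 13.02 normalised CPM in surface controls and at 6.52, 8.59, 9.55 and 6.76 in surface UV-B libraries. In cavefish tnfrsf9a was at 8.67, 10.7 and 9.29 in controls and at 41.8, 30.5 and 29.3 after UV-B. It thus fell in surface fish and rose in cavefish with no overlap within either population, and the difference was 3.11 ± 0.37 (SE, adjusted p = 7.72e-05). The inhibitor gene nfkbie did the same on a smaller scale, from 49.2, 41.9, 43.8 and 39.8 to 29.7, 29.7, 26.4 and 27.5 normalised CPM in surface fish and from 34.7, 38.7 and 39.7 to 46.7, 50.3 and 50.6 in cavefish. Every treated nfkbie library lay below the controls in surface fish and above them in cavefish, with changes of -0.62 and 0.38 and a difference of 1.01 ± 0.15 (SE, adjusted p = 0.000785). The NF-kappaB cofactor gene bcl3 fell in surface fish by 1.71 on the log2 scale and had a change of 0.70 in cavefish that was not called (adjusted p = 0.095). Its difference was 2.41 ± 0.41 (SE, adjusted p = 0.00242). The ribonuclease gene zc3h12a, whose product degrades cytokine transcripts, fell in surface fish by 0.73 and rose in cavefish by 1.31. The NADPH oxidase subunit gene cyba, outside the list, fell by 0.62 in surface fish and rose by 1.07 in cavefish (difference 1.69 ± 0.22, SE, adjusted p = 0.000233).

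The AP-1 list had calls for a higher response in cavefish. Of 22 tested immediate early genes, 9 (40.9%) were called with a higher response in cavefish and none with a lower one, against 6.14% and 8.83% of all named genes. Over the alternatives the number called higher ran from 6, without cave control replicate 3, to 10. After UV-B 16 rose and 2 fell in surface fish, and 20 rose and 2 fell in cavefish. The median change was 0.74 in surface fish and 1.50 in cavefish.

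The gene fosab, a Fos subunit of AP-1, was at 11.6, 9.17, 17.3 and 14.8 normalised CPM in surface controls and at 8.36, 6.94 and 17.2 in cave controls, so the untreated populations overlapped. After UV-B fosab reached 88.9, 97.8, 86.2 and 73.3 in surface fish and 211, 226 and 233 in cavefish, where every library was above every surface library. The difference was 1.68 ± 0.30 (SE, adjusted p = 0.00344). The related fosl1a had the largest change of the list, from 1.196 ± 0.14 to 20.7 ± 3.75 normalised CPM in surface fish (SD, n = 4 each) and from 0.65 ± 0.26 to 39.8 ± 4.34 in cavefish (SD, n = 3 each). Its fosl1a difference of 1.81 ± 0.37 (SE, adjusted p = 0.00806) was called in every alternative other than limma-voom (adjusted p = 0.0775). The early gene ier2a and the phosphatase gene dusp1, which switches off stress kinases, had differences of 1.07 and 0.85. The differences of the other 13 members were not called, which does not show equal responses.

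Of 18 tested members of the integrated stress response list, 7 (38.9%) were called with a higher response in cavefish and none with a lower one. The shares of all named genes were 6.14% and 8.83%. Over the alternatives the number called higher ran from 6, without surface control replicate 1, to 10. After UV-B 13 members rose in surface fish against 16 in cavefish. For cebpb, a transcription factor gene of this response and of acute inflammation, the controls were at 31.5, 29.1, 38.6 and 20.4 normalised CPM in surface fish and at 19.0, 18.2 and 20.5 in cavefish. UV-B libraries had cebpb at 175, 184, 185 and 176 in surface fish and at 330, 337 and 278 in cavefish. The cave controls lay at the low end of the surface controls and the cave UV-B libraries above every surface library, and the difference was 1.44 ± 0.21 (SE, adjusted p = 0.000452). The glutathione-degrading enzyme gene chac1, an Atf4 target, went from 160 ± 24.2 to 369 ± 21.2 normalised CPM in surface fish (SD, n = 4 each) and from 145 ± 22.6 to 717 ± 28.6 in cavefish (SD, n = 3 each), a difference of 1.10 ± 0.17 (SE, adjusted p = 0.000785). The Atf family gene atf5b differed by 1.17 and the amino acid transporter gene slc38a2 by 0.95. For slc38a2 the surface change of 0.07 was not called (adjusted p = 0.693), and the cave change was 1.02.

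Both small heat shock protein genes with called differences, whose products hold unfolding proteins in solution, rose in both populations. The gene hspb9 was at 7.61, 10.9, 10.3 and 8.52 normalised CPM in surface controls and 22.8, 17.5, 18.1 and 19.9 after UV-B, whereas cavefish had 9.41, 16.0 and 22.1 untreated and 114, 122 and 142 after UV-B. The cave UV-B libraries stood far above all others, with a difference of 1.94 ± 0.27 (SE, adjusted p = 0.000422). The gene hspb11 differed by 1.58 ± 0.21 (SE, adjusted p = 0.000233), and the co-chaperone gene bag3 by 0.82 ± 0.19 (SE, adjusted p = 0.0202), a call that did not hold with library totals (adjusted p = 0.0525) or once cave UV-B replicate 2 (adjusted p = 0.0514) or 4 (adjusted p = 0.0618) was left out. Of 19 tested members of the chaperone list, 3 (15.8%) were called, a share near the 15.0% of all named genes. The number was 2 without cave UV-B replicate 2, 5 without cave UV-B replicate 1 and 6 in DESeq2. In surface fish 16 of the 19 rose, as did 16 in cavefish.

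**Figure D3:**
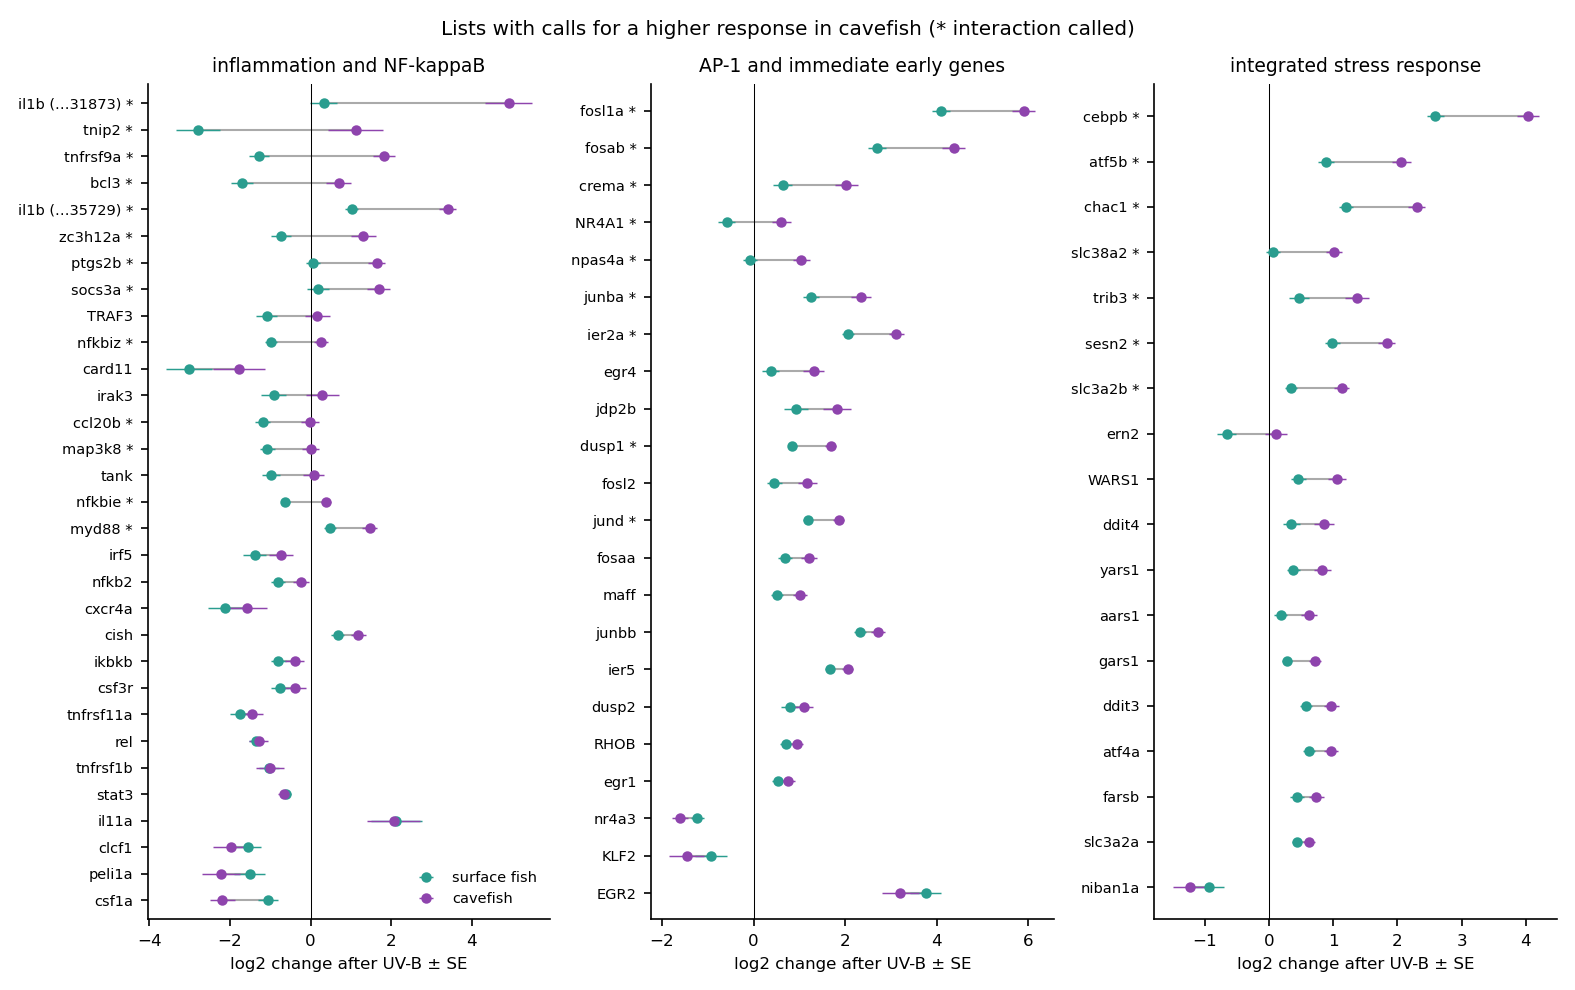
Log2 change after UV-B with its SE for each tested member of the inflammation, AP-1 and integrated stress response lists in surface fish (green) and cavefish (purple), ordered by their difference, with an asterisk where the interaction was called. The 13, 9 and 7 called members all have the cave value to the right of the surface value.

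The clock list had calls in the other direction. Of 9 tested members of the clock list, 3 (33.3%) were called with a lower response in cavefish, namely per2, cry1a and dbpb, and none with a higher one. Of all named genes 8.83% were called lower and 6.14% higher. The differences of the 9 members were negative for 5 and positive for 4. In surface fish 7 of the 9 rose and none fell, whereas 4 rose and 3 fell in cavefish. Over the alternatives 3 to 5 of the 9 were called lower, 5 of them with library totals, and up to 1 was called higher.

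The period gene per2, a repressor in the clock loop that light induces in zebrafish, was at 55.4, 55.4, 62.4 and 62.3 normalised CPM in surface controls and at 82.0, 88.4, 81.0 and 78.8 after UV-B. In cavefish per2 was at 50.5, 54.5 and 53.9 in controls and at 30.2, 34.8 and 33.8 after UV-B. All treated libraries were higher than the controls in surface fish and lower in cavefish, and the controls of the populations were close together. The changes were 0.49 and -0.68, and the difference of -1.17 ± 0.14 (SE) had an adjusted p of 7.72e-05. For the cryptochrome gene cry1a, another light-induced repressor, levels were 143, 134, 139 and 147 in surface controls, 161, 158, 185 and 166 in surface UV-B libraries, 82.7, 86.1 and 86.7 in untreated cavefish and 43.3, 63.0 and 46.0 in exposed ones. The cave fall of cry1a was called, and the surface change of 0.25 was not (adjusted p = 0.0777), with a difference of -0.99 ± 0.16 (SE, adjusted p = 0.000986). The gene dbpb, a PAR-domain transcription factor driven by the clock, was at 27.2 ± 1.68 and 30.9 ± 2.53 normalised CPM in surface controls and UV-B libraries (SD, n = 4 each) and at 160 ± 8.44 and 102 ± 1.68 in cavefish (SD, n = 3 each). Its difference was -0.83 ± 0.13 (SE, adjusted p = 0.00112), and every cave library lay above every surface library.

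**Figure D4:**
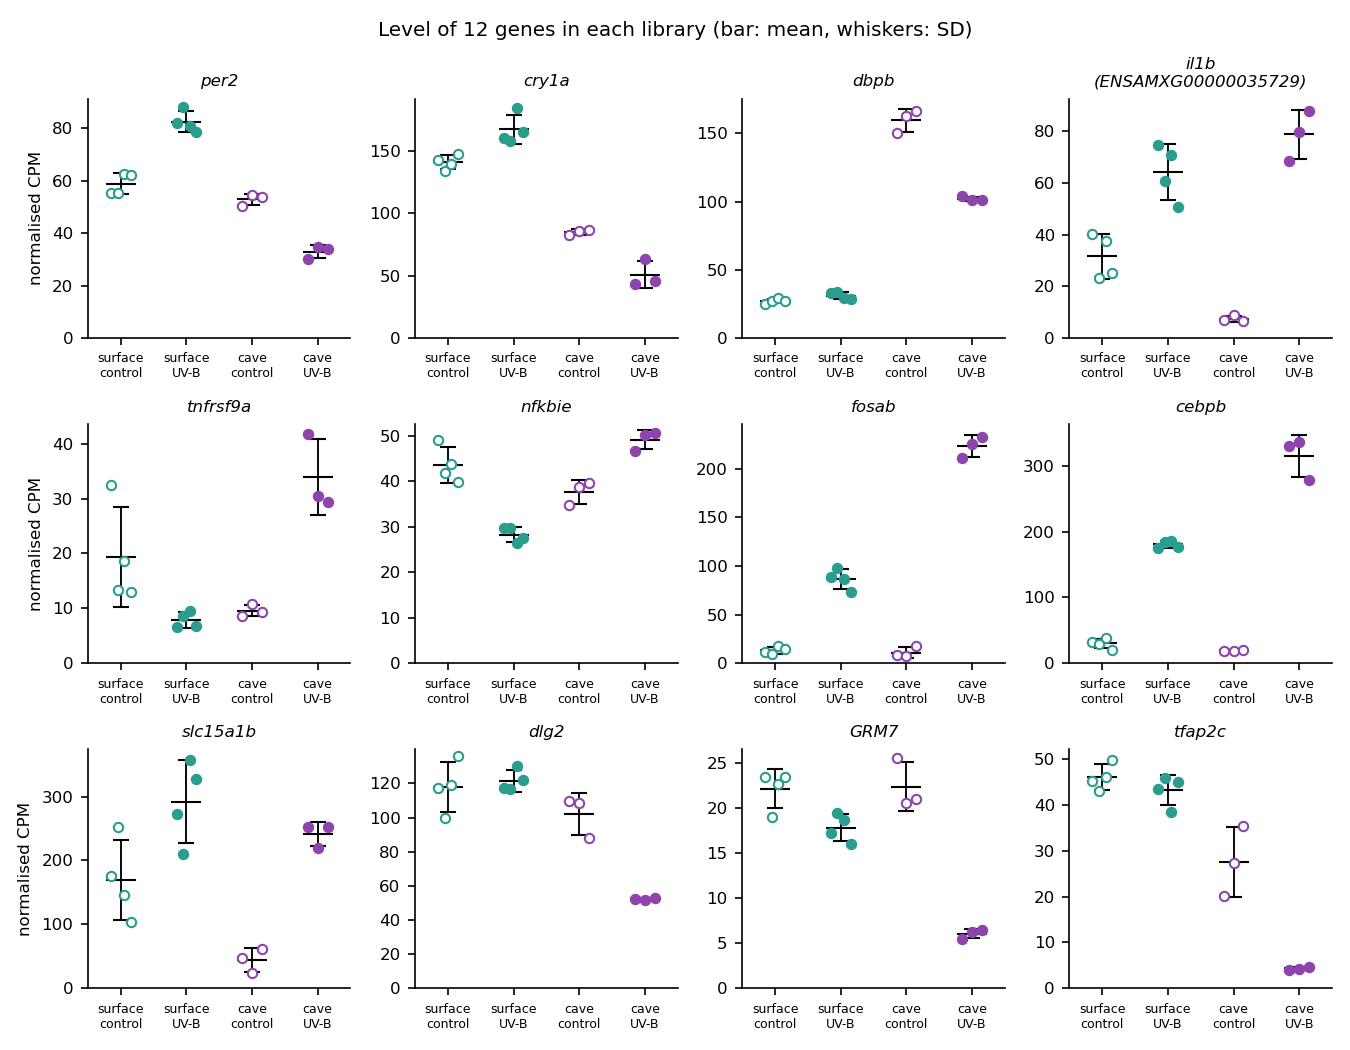
Normalised CPM in each library for 12 genes, with surface fish in green, cavefish in purple, controls as open and UV-B libraries as filled circles, and the mean and SD of each group as bar and whiskers (n = 4 surface and 3 cave libraries per group). The first row shows per2, cry1a and dbpb, which fell after UV-B in cavefish, beside the more abundant il1b copy, which rose in both populations.

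No gene of the DNA repair list passed the test in either direction. The list held only genes with a name, and xrcc3 and fan1, which the study discusses, are not described here. Of 9 tested members 0 were called in edgeR, DESeq2 and limma-voom, and 1 was called lower with library totals. The edgeR share of all named genes was 15.0%, and 9 members are too few to set 0 calls apart from it. In edgeR 3 had an unadjusted p under 0.05. After UV-B 4 of the 9 rose and 3 fell in surface fish, and 3 rose and 3 fell in cavefish. The list's median change was 0.45 in surface fish and 0.06 in cavefish, each the value of 1 gene, ube2b and cpdp. The median difference was -0.15, and from -0.28 to -0.01 in the alternatives. The CPD photolyase gene cpdp, whose product splits UV dimers in light, was at 57.4, 58.9, 59.0 and 58.6 normalised CPM in surface controls and at 94.4, 72.1, 87.1 and 83.7 after UV-B. In cavefish cpdp was at 53.4, 57.1 and 68.5 in controls and at 56.4, 59.7 and 70.2 after UV-B, where the groups overlapped. It rose in surface fish by 0.53, its cave change was 0.06 (adjusted p = 0.752), and the difference of -0.47 ± 0.16 (SE) had an adjusted p of 0.106. The cpdp difference was called in 1 of 21 alternatives, with a lowest adjusted p of 0.023. The damage sensor gene ddb2 had a difference of -0.52 ± 0.21 (SE, adjusted p = 0.199), with surface UV-B libraries spread from 37.3 to 64.0 normalised CPM, and its value was -0.34 without surface UV-B replicate 3. The ubiquitin-conjugating enzyme genes ube2al and ube2b, homologues of a yeast gene for damage tolerance, rose in both populations, with differences of 0.48 ± 0.21 (SE, adjusted p = 0.247) and 0.08 ± 0.15 (SE, adjusted p = 0.837). That these differences missed the threshold does not show equal responses.

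Synapse genes had calls in the lower direction alone. Of 34 tested genes of this list, 13 (38.2%) were called with a lower response in cavefish and none with a higher one, against 8.83% of named genes called lower. In surface fish 4 rose and 18 fell, and in cavefish 1 rose and 27 fell. Without cave UV-B replicate 4 the called number was 8. The neuron markers elavl4, gng3 and stmn1b were not called for the interaction, with differences of -0.40, -0.09 and -0.01 (adjusted p = 0.228, 0.804 and 0.985). Missing the threshold does not show equal responses of these markers.

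The metabotropic glutamate receptor gene GRM7 was at 23.5, 19.0, 22.6 and 23.5 normalised CPM in surface controls, 17.2, 19.4, 18.6 and 16.0 in surface UV-B libraries, 25.5, 20.6 and 20.9 in untreated cavefish and 5.45, 6.29 and 6.46 in exposed ones. Only the cave UV-B libraries stood apart, and the difference was -1.57 ± 0.21 (SE, adjusted p = 0.000269). The scaffold gene dlg2, which anchors receptors at the postsynaptic membrane, was at 117, 99.9, 119 and 136 in surface controls, at 117, 117, 130 and 122 in surface UV-B libraries, at 110, 109 and 88.0 in untreated cavefish and at 52.4, 51.7 and 52.95 in exposed ones. Its dlg2 change was 0.04 in surface fish (adjusted p = 0.804) and -0.96 in cavefish, a difference of -1.01 ± 0.15 (SE, adjusted p = 0.000785). The vesicle-release gene RIMS1 differed by -1.03, and the serotonin receptor gene htr2cl1, which fell in both populations, by -1.64.

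The 15 lowest called differences among named genes averaging 50 counts or more, which were not tested as a group, also held cntnap5a of the neurexin superfamily (-1.51), the netrin-G gene ntng2b (-1.39), the Rac exchange factor gene tiam1a (-1.51) and adarb2, of the RNA-editing enzyme family (-1.66). The sodium, potassium and calcium exchanger gene slc24a3 was at 85.8, 70.2, 82.1 and 98.6 normalised CPM in surface controls, at 102, 111, 98.3 and 98.3 after UV-B, at 53.7, 56.6 and 49.2 in untreated cavefish and at 17.5, 20.7 and 22.7 in exposed ones. The cave groups were far apart and the surface ranges overlapped, with a slc24a3 difference of -1.67 ± 0.17 (SE, adjusted p = 2.01e-05).

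The AP-2 transcription factor gene tfap2c, which acts in neural crest and epidermis, had the smallest adjusted p among the named genes. It was at 45.2, 42.9, 46.0 and 49.8 normalised CPM in surface controls, at 43.4, 45.9, 38.4 and 44.9 in surface UV-B libraries, at 20.1, 27.2 and 35.3 in untreated cavefish and at 4.06, 4.29 and 4.72 in exposed ones. The surface groups overlapped, and the cave UV-B libraries were lowest by a wide margin. The tfap2c change was -0.09 in surface fish (adjusted p = 0.651) and -2.65 in cavefish, a difference of -2.56 ± 0.23 (SE, adjusted p = 7.03e-06). The heparan sulfate sulfotransferase gene hs3st3b1a (-2.15) and the phospholipid flippase gene atp11a (-1.71) had the same form.

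**Figure D5:**
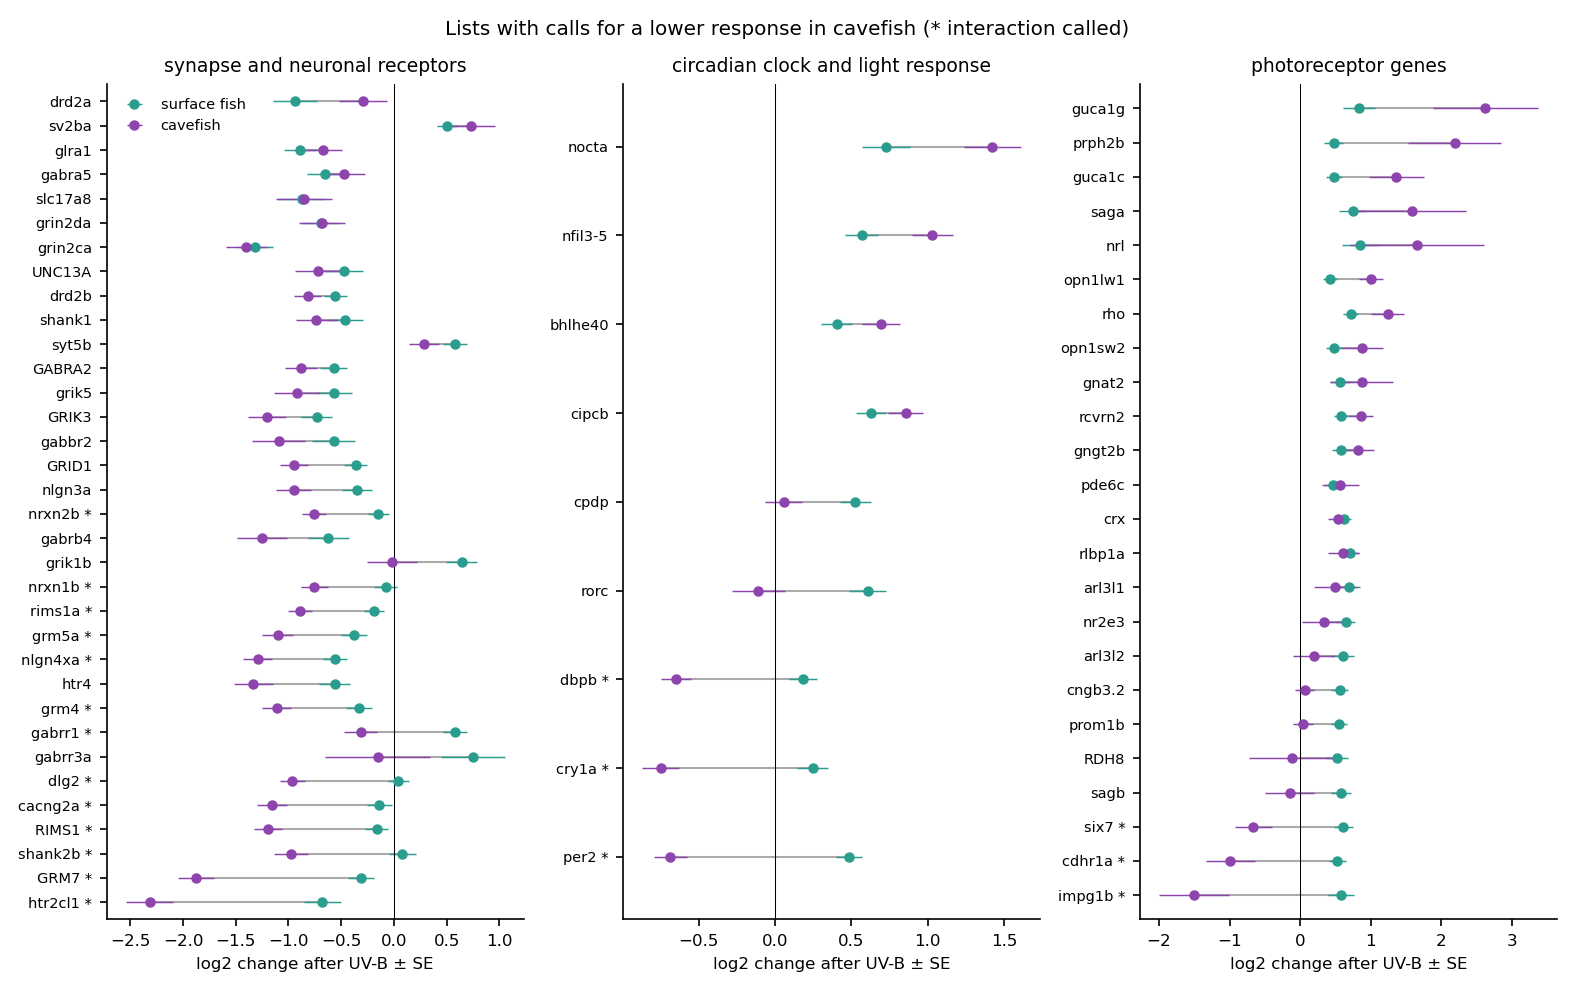
Log2 change after UV-B with its SE for each tested member of the synapse, clock and photoreceptor lists in surface fish (green) and cavefish (purple), ordered by their difference, with an asterisk where the interaction was called. The 13 called synapse genes and the 3 called clock genes have the cave value to the left of the surface value, and photoreceptor genes spread to both sides, with wide errors in cavefish.

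Photoreceptor genes had a median change of 0.58 in surface fish and 0.59 in cavefish, with fewer calls in cavefish. All 24 tested photoreceptor genes rose in surface fish after UV-B, and in cavefish 10 rose and 2 fell. The list's median difference was 0.00. Against 15.0% of named genes called and 8.83% called lower, 3 members (12.5%), six7, cdhr1a and impg1b, were called with a lower response in cavefish. These calls rest on few counts, since cdhr1a had 20, 11 and 12 counts in untreated cavefish and 7, 5 and 5 in exposed ones, and the number of calls was 1 once cave control replicate 3 or cave UV-B replicate 4 was left out and 0 once cave UV-B replicate 2 was. With limma-voom none of these 3 genes was called (adjusted p = 0.141 for six7, 0.223 for cdhr1a and 0.239 for impg1b). The list's median also changed sign between alternatives, from -0.14 to 0.22.

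The next 4 genes, outside the photoreceptor list, were better covered in cavefish. They were picked from the interaction calls for their opposite responses, so that shared form follows from the choice. No list of inner retina genes was made. The gene prdm13, a regulator of amacrine cell development in the mouse, was at 28.6, 23.9, 32.0 and 39.5 normalised CPM in surface controls, at 52.0, 53.1, 59.4 and 53.1 in surface UV-B libraries, at 10.2, 13.5 and 11.8 in untreated cavefish and at 6.99, 3.53 and 6.22 in exposed ones. It rose in surface fish and fell in cavefish with no overlap in either, a difference of -1.88 ± 0.27 (SE, adjusted p = 0.000452). The eye and brain regulator pax6a was at 94.9 ± 11.1 and 131 ± 16.7 in surface controls and UV-B libraries (SD, n = 4 each) and at 37.9 ± 2.63 and 23.4 ± 0.90 in cavefish (SD, n = 3 each). The pax6a difference was -1.16 ± 0.17 (SE, adjusted p = 0.000452). The bipolar cell channel gene trpm1b, with a difference of -1.70, and the centrosomal gene ninl, with -1.13, also changed in opposite directions. Each of these 4 genes was lower in every cave control than in any surface control.

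The intestinal list held genes of nutrient digestion and uptake by enterocytes. All 24 tested members of the enterocyte list had a positive difference, with a median of 0.67, and 5 (20.8%) were called higher, against 6.14% of all named genes. The median difference of all named genes was 0.08. Positive differences also prevailed in other lists, with 50 of 52 ribosomal and 23 of 26 mitochondrial genes, though not in the synapse list, with 6 of 34. Of the 24 enterocyte genes 20 rose and 1 fell in surface fish, and in cavefish 23 rose and none fell. The called number was 3 without surface control replicate 1, 2 or 3, surface UV-B replicate 1, 2 or 4, cave control replicate 3, or cave UV-B replicate 1 or 4, and it was 9 without surface control replicate 4 and 8 without cave control replicate 4. The cholesterol transporter gene NPC1L1 was at 16.2, 17.8, 11.98 and 9.57 normalised CPM in surface controls, 17.1, 13.8, 20.7 and 16.1 in surface UV-B libraries, 4.08, 2.91 and 4.14 in untreated cavefish and 32.4, 18.9 and 27.6 in exposed ones. The surface groups overlapped while the cave groups were apart, with a difference of 2.52 ± 0.33 (SE, adjusted p = 0.000233). The peptide transporter gene slc15a1b was at 169 ± 63.0 and 292 ± 65.0 in surface controls and UV-B libraries (SD, n = 4 each) and at 44.0 ± 19.0 and 242 ± 18.5 in cavefish (SD, n = 3 each), a difference of 1.67 ± 0.36 (SE, adjusted p = 0.0119). Cave UV-B libraries thus lay within the range of surface UV-B libraries for slc15a1b, and the cave controls below all others.

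Metabolic genes were mixed. Of 25 tested genes of glucose and lipid metabolism, 3 were called higher and 1 lower in cavefish, in all 16.0%, near the 15.0% of all named genes. The triglyceride synthesis gene dgat1b had a difference of 0.99 ± 0.20 (SE, adjusted p = 0.00825), and the surface change of 0.18 was not called (adjusted p = 0.355). The calls of pck1, a gluconeogenic enzyme gene (1.03, adjusted p = 0.0434), and igfbp1a, a gene for a growth factor binding protein (0.81, adjusted p = 0.0347), were lost when single libraries were left out, and the number of higher calls was 1 without surface control replicate 1, 2 or 3, surface UV-B replicate 2 or 4, cave control replicate 3, or cave UV-B replicate 1, 2 or 4, and 5 without surface control replicate 4 or cave control replicate 4. The glucokinase gene gck had the most negative difference of all calls averaging 50 counts or more. Its counts were 317, 348 and 59 in untreated cavefish and 4, 0 and 12 in exposed ones, against 18, 39, 31 and 64 in surface controls and 33, 12, 11 and 11 in surface UV-B libraries. Cave controls of gck were uneven, and the difference of -4.50 ± 0.92 (SE, adjusted p = 0.00795) was not called by limma-voom (adjusted p = 0.177).

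Several lists responded alike in direction with few calls. Of 52 ribosomal protein and translation factor genes, 51 rose in each population and 1 (1.92%) was called, the initiation factor gene eif2s2, with a difference of 1.08 ± 0.14 (SE, adjusted p = 0.000233). The gene eif2s2 was at 36.1 ± 0.17 and 40.6 ± 1.85 normalised CPM in surface controls and UV-B libraries (SD, n = 4 each) and at 33.5 ± 1.02 and 79.5 ± 8.74 in cavefish (SD, n = 3 each), so that its cave UV-B libraries were above all others. Of 26 genes of mitochondrial respiration 0 were called in edgeR (7 at an unadjusted p under 0.05) and 1 in DESeq2 and in limma-voom, with a median change of 0.41 in surface fish and 0.65 in cavefish. Among 29 Hedgehog and Wnt genes, all 29 fell in surface fish and 25 in cavefish, and only lef1 was called (-0.57, adjusted p = 0.0444), a call lost without most single libraries (adjusted p up to 0.129). Of 17 p53 and apoptosis genes 2 (11.8%) were called higher, sesn2 (0.85, adjusted p = 0.00943) and gadd45ba (0.67, adjusted p = 0.0278), and gadd45ba was not called with library totals (adjusted p = 0.0606) or without surface control replicate 3, surface UV-B replicate 2 or 4, cave control replicate 2 or cave UV-B replicate 4. The redox enzyme list had 1 call of 20, pgd (0.59, adjusted p = 0.0479), which was lost under most alternatives.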

How the data were processed

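Poly-A RNA libraries of whole larvae were sequenced, and the authors mapped the reads with STAR to version 2.0 of the A. mexicanus genome (Ensembl release 108) and deposited raw read counts per gene. The STAR version, strand setting and any filter are not given in the sources used here, and the deposited counts were well below those of the study's supplementary count table for the same libraries, as a column for 1 strand of an unstranded library would be, which was not settled here. Totals and low counts may therefore understate the sequencing, and genes that overlap or lie antisense to others, and copies of near-identical sequence, are uncertain. The table held 19076 genes, 473 without a count.

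Groups and replicate numbers came from the labels. A population by treatment model over 14 libraries was fitted with edgeR 4.0.16 in R 4.3.3 (quasi-likelihood test, TMM scaling, filterByExpr by group, Benjamini-Hochberg adjustment over all tested genes), and the surface and cave responses are contrasts of the same fit. The study analysed the populations separately with DESeq2. SE is the absolute log2 difference divided by the square root of F, and log2 CPM used a prior count of 2. DESeq2 1.42.0, limma-voom (limma 3.58.1), other scalings and filters, a replicate block and leaving out each library were alternatives. The fit was tested on simulated data that held no difference between untreated populations, so it does not measure errors in the present calls. A count of 0 allows up to 3 counts, between 0.197 and 0.404 CPM, counting error only. No library repeated another of its group (chi-square per degree of freedom from 5.01 to 18.5).

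Names came from the identifier and name columns of the study's supplementary gene tables, cut to the genes ranked first there (1938 of 19076 identifiers with a usable name, 12 names shared by more than 1 identifier). None matched the RefSeq table, and coordinates are not given. Named genes were the 15 highest and 15 lowest called differences averaging 50 counts or more, and the 10 opposite responses with the smallest p of 15. Also named were up to 4 called members per list (otherwise the 2 most abundant) and the extremes. From the genes the study discusses, fosl1a, spic, hspb9, gck, cpdp, ddb2 and ube2al were added. Others that it discusses, such as xrcc3 and fan1, are not described here. Members and lists were chosen with earlier results of these data known. The values of 1 called skin gene are not reported here.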

Additional observations from a re-analysis of the deposited data

Results flagged for a closer look

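The interaction was called in 596 genes, which is a tested difference between the populations in the same contrast. Of the called genes whose responses passed the test in both populations with opposite signs, 15 had a name. The 10 of them with the smallest interaction p are listed here. Those that fell in surface fish and rose in cavefish had differences of 3.107 (tnfrsf9a), 1.693 (cyba), 1.487 (hnf4g), 1.193 (slc25a25a) and 1.005 (nfkbie). Those that rose in surface fish and fell in cavefish had differences of -1.126 (ninl), -1.162 (pax6a), -1.17 (per2), -1.699 (trpm1b) and -1.876 (prdm13).

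Among 146 groups of 4 libraries checked, 6 held a library far from the other 3 by Dixon's ratio, about the 1 in 20 or fewer that chance gives. The library stood above the others for bcl3 in surface control replicate 1 (log2 CPM 4.103 against 3.257 to 3.39), f2rl1.2 in surface UV-B replicate 3 (3.353 against 2.155 to 2.348), tiam1a in surface UV-B replicate 2 (5.507 against 5.29 to 5.323), prdm13 in surface UV-B replicate 3 (5.898 against 5.707 to 5.737) and gck in surface UV-B replicate 1 (2.016 against 0.3894 to 0.5539). It stood below them for hnf4g in surface UV-B replicate 2 (3.294 against 3.798 to 3.846). The differences of bcl3, hnf4g, tiam1a and prdm13 were called in every alternative, that of f2rl1.2 was lost without cave control replicate 3 (adjusted p = 0.0621), and that of gck with limma-voom.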

How the results depend on the processing

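The interaction was called in 596 genes, and in 609 with RLE size factors, 762 with library totals, 959 with DESeq2, 419 with limma-voom, 578 without a filter and 583 with at least 10 counts in every library. Leaving out each library gave 326 to 819 calls, 128 to 369 higher, 198 to 450 lower and 193 to 376 of at least 2-fold. DESeq2 gave 369 higher and 590 lower calls, and library totals 128 and 634, where 16.8% of calls were higher in place of 38.1%. The cause of these shifts was not tested. Of 66 named genes called, 49 were called in every alternative that tested them, 0 changed sign, and 15 lost the call without some library. Among genes not called, ube2b turned to -0.051 with library totals and spic to 1.12 without surface UV-B replicate 2, with a range from -0.777 to 1.12 over the single libraries left out. Replicate numbers were not shown to pair the samples. Same-numbered control and UV-B libraries correlated in their deviations at 0.071, -0.020, 0.022 and 0.087 in surface fish and at 0.152 and 0.061 in cavefish, and not every library correlated best with its own number. With the replicate number as a block 456 genes were called, 418 of them among the 596.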

Other observations

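Muscle and skin genes not described above gave further values. The muscle ubiquitin ligase genes trim63a and fbxo32, both induced in wasting muscle, had differences of 0.92 (adjusted p = 0.0299) and 1.62 (adjusted p = 0.0429), and the muscle kelch gene klhl38b had 1.57 (adjusted p = 0.00913). The genes trim63a and klhl38b rose in cavefish by 1.34 and 1.49, and their surface changes of 0.42 and -0.08 were not called. In contrast, fbxo32 fell by 1.13 in surface fish, and its cave change of 0.50 was not called (adjusted p = 0.275). These 3 genes were the calls among 22 muscle genes, a share of 13.6% beside 15.0% of all named genes called and 6.14% called higher. The number was 1 without surface control replicate 1 or 2, surface UV-B replicate 2 or cave UV-B replicate 4, and 5 without cave control replicate 4. Of 26 skin genes 3 (11.5%, against the same shares of named genes) were called higher, among them the epithelial Ets factor genes elf3 (1.88, adjusted p = 0.00971) and ehf (2.61, adjusted p = 0.049). The gene ehf fell by 2.71 in surface fish, and its cave change of -0.10 was not called (adjusted p = 0.911). The call of ehf held in 7 of 20 alternatives (adjusted p up to 0.216, without cave UV-B replicate 2), that of fbxo32 in 9 of 21 (up to 0.187, without cave UV-B replicate 4) and that of trim63a in 16 of 21 (up to 0.101, without cave UV-B replicate 4). The gene elf3 was at 88.6, 45.5, 58.1 and 36.1 normalised CPM in surface controls, 15.5, 11.3, 12.8 and 6.21 in surface UV-B libraries, 11.8, 18.02 and 16.9 in untreated cavefish and 10.8, 13.2 and 10.6 in exposed ones. It fell in surface fish, where the UV-B libraries overlapped the cave libraries, and the cave change of -0.44 was not called (adjusted p = 0.296).

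Among the single genes named, the ATP-magnesium carrier gene slc25a25a fell by 0.47 in surface fish and rose by 0.72 in cavefish, and the uncoupling protein gene ucp3 had a surface change of -0.39 (adjusted p = 0.144) and rose by 1.34 in cavefish, with a difference of 1.73 ± 0.30 (SE, adjusted p = 0.00298). The gene spic, a transcription factor of macrophages in the mouse, had 16, 11, 16 and 9 counts in surface controls, 1, 4, 0 and 0 in surface UV-B libraries, 29, 24 and 34 in untreated cavefish and 3, 1 and 3 in exposed ones, and fell in both populations. Its difference of -0.40 ± 1.33 (SE, adjusted p = 0.919) was not resolved at this depth.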
